A study of Mus musculus with 2 samples.

Results

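Transcripts of brain-derived neurotrophic factor (Bdnf), of the neurotrophin receptors and of the neuronal pentraxins were compared between the hypothalamus of Crtc1 knockout mice and that of wild-type mice. The set was chosen by gene name and held 8 genes: the ligands Bdnf and Ntf3, the receptors Ntrk2, Ntrk3 and Ngfr, and the pentraxins Nptx1, Nptx2 and Nptxr. A gene entered with every probe set of the Mouse Genome 430 2.0 array that the platform annotation pairs with that gene alone. By this rule 6 of the 8 genes were represented, by 25 of the array's 45037 probe sets that are not controls, and 18193 genes were represented in all. Ntf3 had no such probe set in the annotation used and is not analysed here. The 3 probe sets of Nptxr are each paired with a second gene, Npcd, and gave no value for Nptxr.

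Both groups were male mice of 12 weeks that went without food for 18 h overnight and then had food for 6 h before the hypothalamus was taken. The knockout group carried the Crtc1 knockout and the wild-type group did not. Equal amounts of RNA from 3 mice of a genotype were mixed and put on 1 array, so each genotype was 1 pooled sample with no replicate, and no test between the genotypes was possible. The number of arrays limits the precision of every value below. The mouse strain, the construction of the allele and whether the wild-type mice were littermates were not given in the sources used here. In whole tissue, fewer cells of a type and less RNA per cell cannot be told apart.

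Bdnf is a secreted growth factor of neurons that binds the receptor tyrosine kinase TrkB, the product of Ntrk2, and in the hypothalamus this pathway restrains food intake. Ntrk3 encodes TrkC, the receptor of neurotrophin 3, and Ngfr encodes p75, which binds all neurotrophins and their precursors. The neuronal pentraxins are secreted or membrane-bound proteins that gather AMPA-type glutamate receptors at excitatory synapses, and Nptx2 is known as an early gene induced by neuronal activity. Crtc1 works with CREB, a transcription factor that cAMP and calcium switch on, and Bdnf is a textbook target of CREB.

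The values are linear signals, 1 per probe set and array, with medians of 54.4 in the knockout and 52.2 in the wild-type pool. A difference is the log2 signal of the knockout pool minus that of the wild-type pool, after signals below the 30th percentile of each array (20.5 and 20.2) had been raised to it. A probe set counted as measured when its mean log2 signal reached the median of all probe sets, a signal of 52.3. The array error given beside a difference is the SD between measured probe sets of the same gene over the whole array in the same range of signal. It holds no spread between mice. The Crtc1 signal read 85.1 in the knockout and 631 in the wild-type pool by its brightest probe set, a direction that matches the labels. Its place relative to the altered exons was not given in the sources used here. Of 10 marker genes of the hypothalamus, 2 were measured and the other 8 were below the limit. Otp read 253 and 244 and Six3 130 and 127 in the knockout and wild-type pools, sums of 383.1 and 371.2. The 8 measured thalamus markers summed to 9850.6 and 9788.1, and 10 cortex and hippocampus markers to 6069.2 and 5476.3. Such sums are of different genes and do not give shares of tissue. The part of neighbouring regions in the values below was not tested. The ratio of 3' to 5' signal, which rises when RNA is degraded, was 1.47 and 1.25 for actin and 0.863 and 0.873 for Gapdh.

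Among the ligands, Bdnf differed little between the pools. The gene is transcribed from several starts whose first exons are spliced to a shared coding exon. Windows from RefSeq (assembly GRCm38.p6) before transcript starts of Bdnf, Ntf3, Ngfr and Ntrk2 were used here, and 7 of the 11 windows belonged to Bdnf. A window can thus lie within the gene, as part of the Ntrk2 window does. RefSeq begins that gene at base 58806472 of chromosome 13. The 250 bases before each start were searched on both strands for TGACGTCA, the full element that CREB binds, and for its shorter form TGACG, which lies within the full element. The full element was in none of the 11 windows and in 1.55% of all 32851 windows of that length. The shorter form was in 1 of the 7 Bdnf windows, in none of the 4 windows of the other genes, and in 17.8% of all windows. The Bdnf window with the match (chr2:109692186-109692435, plus strand) and the Ntrk2 window (chr13:58806319-58806568, plus strand) are shown because these are the ligand and the receptor of the pathway. Capitals mark TGACG read on the opposite strand, 35 to 31 bases before the start.
Bdnf: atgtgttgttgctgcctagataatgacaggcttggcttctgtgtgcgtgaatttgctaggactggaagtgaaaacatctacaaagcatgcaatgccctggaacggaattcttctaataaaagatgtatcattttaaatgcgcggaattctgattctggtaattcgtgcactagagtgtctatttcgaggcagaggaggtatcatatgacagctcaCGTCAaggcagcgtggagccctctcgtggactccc
Ntrk2: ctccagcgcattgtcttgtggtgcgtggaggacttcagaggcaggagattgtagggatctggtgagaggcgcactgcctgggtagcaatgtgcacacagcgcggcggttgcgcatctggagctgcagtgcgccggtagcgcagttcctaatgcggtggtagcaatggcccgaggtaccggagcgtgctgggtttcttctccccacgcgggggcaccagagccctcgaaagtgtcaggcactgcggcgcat

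Both Bdnf probe sets were measured. Probe set 1422169_a_at read 171.5 in the knockout and 149.4 in the wild-type pool, and 1422168_a_at read 134.1 and 132.7. The knockout pool was the higher by the first, and the pools were nearly equal by the second. The differences were 0.20 and 0.015 on the log2 scale, each within the array error of 0.26, and their mean was 0.11 ± 0.13 (SD over 2 probe sets of the same pools). Of all measured genes, 32.7% differed at least as much as Bdnf did by its brighter probe set, in either direction. The sign of the second probe set was not kept, since it was -0.044 with median centring, -0.021 with quantile normalization and -0.022 with loess. The suffix _a_at marks probe sets designed to read several transcripts of a gene, so these values do not separate transcripts from the different starts.

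Ntrk2, the receptor of Bdnf, read lower in the knockout pool by 6 of its 7 measured probe sets. The brightest, 1420838_at, read 1529.6 in the knockout and 1788.7 in the wild-type pool. The next, 1435196_at, read 1536.0 and 1723.6. The wild-type pool was the higher by both, and the log2 differences were -0.23 and -0.17 with an array error of 0.16. Probe set 1437560_at read 985.5 in the knockout and 1087.3 in the wild-type pool (-0.14). Probe set 1435305_at read 269.4 and 294.5 (-0.13), and 1446712_at read 79.7 and 86.7 (-0.12). These 3 differences point the same way and lie within their array errors of 0.16, 0.23 and 0.32. The lowest value of the gene came from 1420837_at, which read 216.2 in the knockout and 280.0 in the wild-type pool, 1.30-fold lower (-0.37, array error 0.26). The exception was 1458622_at, at 1408.2 and 1321.5, higher in the knockout pool by 0.092.

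Over its 7 measured probe sets Ntrk2 had a mean difference of -0.15 ± 0.14 (SD over probe sets). The eighth probe set, 1444121_at, read 5.9 and 2.2, under the floor in both pools, and gave no difference. By the brightest probe set 27.8% of measured genes differed at least as much. Of the 288 genes read by 5 or more measured probe sets, 16.7% had all or all but 1 of them lower and 22.2% all or all but 1 higher. These shares take in genes with fewer measured probe sets than Ntrk2, where fewer need to agree. The share among genes with 7 was not counted. The receptor exists as a full-length kinase in neurons and as truncated forms, which astrocytes carry, and the annotation used does not say which form a probe set reads.

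**Figure D1:**
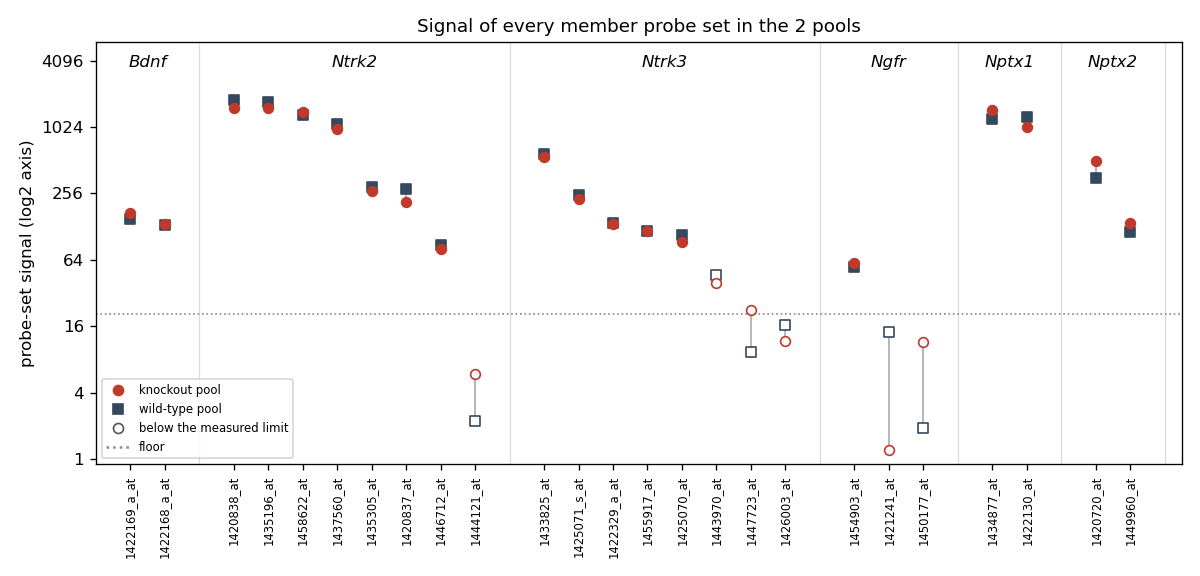
Signal of each of the 25 probe sets (log2 axis) in the knockout pool (red circles) and the wild-type pool (dark squares), grouped by gene and brightest first. Open symbols are the 6 probe sets below the measured limit and the dotted line is the knockout floor of 20.5. The symbols of both pools nearly coincide for Bdnf and for the measured probe sets of Ntrk3, while the knockout pool lies above the wild-type pool for both Nptx2 probe sets.

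Ntrk3, the receptor of neurotrophin 3, showed smaller differences of mostly the same sign. Its brightest probe set, 1433825_at, read 542.9 in the knockout and 577.8 in the wild-type pool (-0.090, array error 0.21). Probe set 1425071_s_at read 226.6 and 246.3 (-0.12), and 1425070_at read 93.0 and 107.0 (-0.20). In all of these the wild-type pool was the higher, by less than the array error. Probe sets 1422329_a_at, at 135.7 and 138.0, and 1455917_at, at 118.0 and 117.2, were nearly equal in the pools (-0.024 and 0.0098). The mean of the 5 measured probe sets was -0.085 ± 0.083 (SD over probe sets), and 63.3% of measured genes differed at least as much as the brightest. Of the 3 dim probe sets, 1443970_at read 39.5 and 46.5, 1447723_at read 22.7 and 9.4, and 1426003_at read 11.8 and 16.3.

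Taking the Trk receptors Ntrk2 and Ntrk3 as a pair, 10 of 12 measured probe sets were lower in the knockout pool and 2 were higher, against 48.9% lower among all measured probe sets of 1 gene. Their median difference was -0.12 and their range ran from -0.37 to 0.092. Only 3 of the 12 differences, all of Ntrk2, exceeded the array error. Probe sets of one gene read the same RNA and are no replicates, so these counts describe 2 genes. With median centring, quantile normalization or loess the count was 11 of 12. The probe set that changed sign was 1455917_at of Ntrk3, at -0.050, -0.039 and -0.032. The share of all probe sets that were lower was not counted with these scalings. Median centring moves the median of all measured genes to -0.055.

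Ngfr, which encodes p75, was near the limit of measurement. Its one measured probe set, 1454903_at, read 60.1 in the knockout and 55.1 in the wild-type pool (0.13, array error 0.32). The other 2 read 1.2 and 14.2 (1421241_at) and 11.5 and 1.9 (1450177_at) and were under the floor in both pools. Of measured genes, 51.2% differed at least as much, so no difference in Ngfr was detectable at this signal.

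The pentraxins held the largest difference of the group. Nptx2 probe set 1420720_at read 500.5 in the knockout and 351.4 in the wild-type pool, and 1449960_at read 137.9 and 114.3. The knockout pool was the higher by both. The first difference was 1.42-fold (0.51, array error 0.23) and the second 1.21-fold (0.27, array error 0.32), with a mean of 0.39 ± 0.17 (SD over 2 probe sets). As large a difference as that of the brighter probe set was found in 5.25% of measured genes. Of the 3100 genes with exactly 2 measured probe sets, 27.3% had both higher. The difference of Nptx2 stayed between 0.39 and 0.52 in every one of the 10 processing alternatives.

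Nptx1 had no settled direction. Probe set 1434877_at read 1457.5 in the knockout and 1222.4 in the wild-type pool, 1.19-fold higher (0.25). Probe set 1422130_at read 1028.8 and 1265.8, 1.23-fold lower (-0.30). Both differences exceed the array error of 0.16 at this signal, and they have opposite signs, as in 45.3% of genes with exactly 2 measured probe sets. The mean over the 2 probe sets was -0.023 ± 0.39 (SD). The readings of Nptx1 thus opposed each other, and the positions of the probe sets in the transcript were not given in the sources used here.

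**Figure D2:**
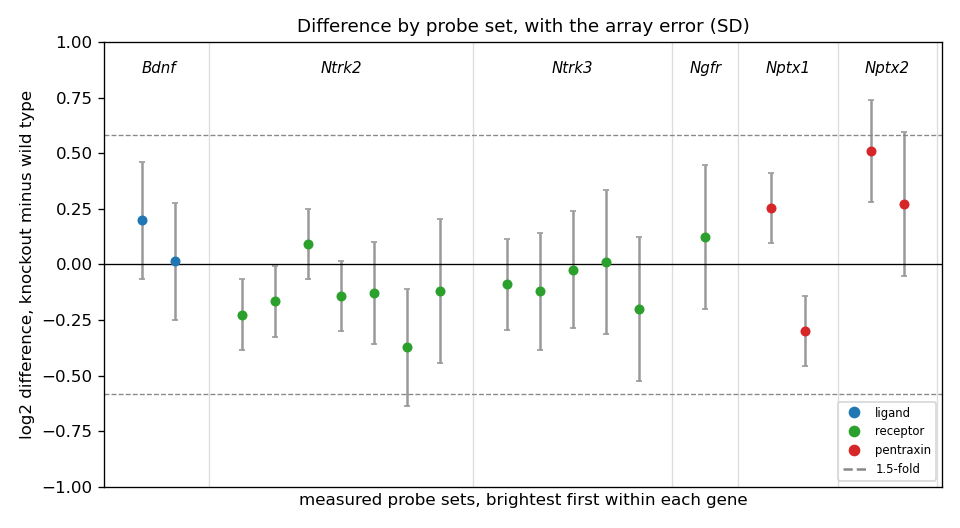
Log2 difference, knockout minus wild type, of the 19 measured probe sets, with bars of 1 array error (SD between probe sets of a gene in the same signal range) each way and dashed lines at 1.5-fold. No probe set lies beyond the dashed lines, the Ntrk2 and Ntrk3 values (green) lie mostly below 0, and the 2 Nptx1 values (red) lie on either side of 0.

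None of the 19 measured probe sets and none of the 6 genes differed by 1.5-fold or more, against 4.44% of all measured probe sets of 1 gene and 3.5% of all 11312 measured genes. At 1.2-fold, a limit added after the data were seen, 2 of the 19 probe sets were higher and 2 lower, against 13.9% and 11.8% of all measured probe sets. The 2 higher were both of Nptx2, and the 2 lower were 1420837_at of Ntrk2 and 1422130_at of Nptx1. In all, 8 of the 19 probe sets were higher and 11 lower, against 51% and 48.9% of all measured probe sets of 1 gene. The split became 6 and 13 with median centring, quantile normalization or loess. Shares over all probe sets were not counted with those scalings. Probe sets 1422168_a_at of Bdnf and 1455917_at of Ntrk3, both nearly equal in the pools, were the ones that changed sign. The difference exceeded the array error in 6 of the 19, against 27.4% of all measured probe sets. By their brightest probe sets 4 genes were higher and 2 lower, where 50.9% of all measured genes were higher and 49% lower. The median of the 6 was 0.16, against 0.0041 over all measured genes, and it counts Nptx1 as higher. By the mean of each gene's measured probe sets 3 genes were higher and 3 lower with a median of 0.042, and over the 19 probe sets the median was -0.090. With so few genes these shares are imprecise, and they were not tested against those of the whole array.

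**Figure D3:**
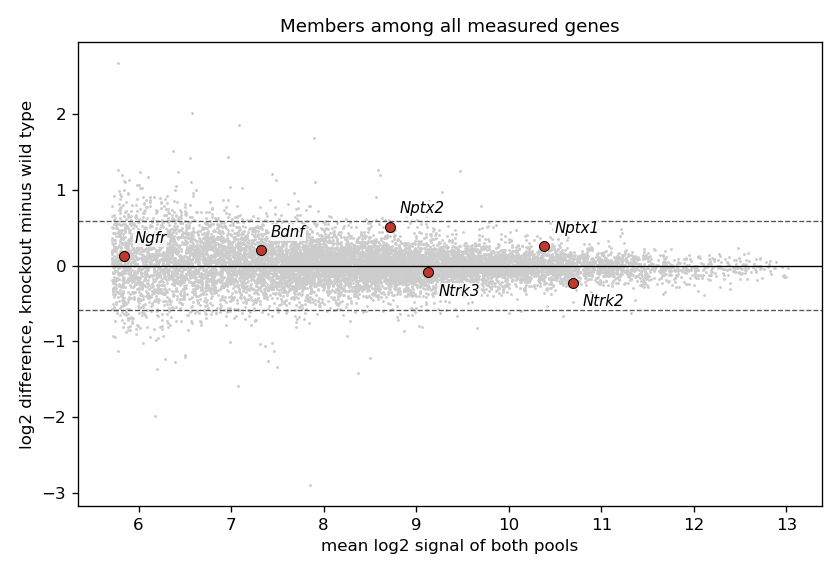
Log2 difference, knockout minus wild type, against mean log2 signal for the 11312 measured genes (grey), each by its brightest probe set, with the 6 members in red and dashed lines at 1.5-fold. All 6 members lie between the dashed lines; Nptx2, at 0.51, is the closest to one of them.

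The wider pathway was read from 8 lists of 153 genes in all, of which 117 were measured. Of these, 53 were higher and 64 lower in the knockout pool, with a median of -0.025. With median centring, which moves the median of all measured genes to -0.055, the split was 37 and 80. Past 1.5-fold there were 3 higher genes, against 2.06% of all measured genes, and 2 lower ones, Crtc1 included, against 1.44%. The 3 make up 2.56% of the measured pathway genes and the 2 make up 1.71%, near the background with the deposited scaling. Crtc1, 1 of the 2, is the gene knocked out. With median centring 2 were higher and 4 lower past 1.5-fold, against 165 and 229 of all 11312 measured genes.

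Of the other receptors of neurotrophins and their precursors, the sortilin family was the measured part. Of 8 genes listed 4 were measured, 2 higher and 2 lower, with a median of 0.11. Sorcs1 differed most, at 1.30-fold higher (0.38, array error 0.32), with both of its probe sets higher. Sorcs3 differed by 0.28, with a second probe set of the opposite sign, and Sorcs2 by -0.14. None passed 1.5-fold.

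Genes of neurotrophin processing and release went both ways, 4 higher and 8 lower of 12 measured, with a median of -0.04. Pcsk5, a proprotein convertase, read 85.3 in the knockout and 46.6 in the wild-type pool, 1.83-fold higher (0.87, array error 0.32), and both of its probe sets were higher. Plat encodes tissue plasminogen activator, a protease that acts on proBdnf through plasmin. It read 221.6 and 327.1, 1.48-fold lower (-0.56, array error 0.23), and passed 1.5-fold with median centring (-0.62). Hap1, a huntingtin partner in vesicle transport that is abundant in the hypothalamus, read 1400.4 and 1958.5, 1.40-fold lower (-0.48, array error 0.16). Pcsk7, another convertase, was 1.35-fold lower (-0.43). Plat, Hap1 and Pcsk7 each rested on 1 probe set.

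Of the adaptors and kinases that act below the Trk receptors, 39 of 48 were measured, 16 higher and 23 lower, with a median of -0.04. Mapk7, which encodes the kinase ERK5, read 92.3 in the knockout and 142.4 in the wild-type pool, 1.54-fold lower (-0.63, array error 0.32, 1 probe set). With the deposited scaling Mapk7 was alone on its list past 1.5-fold. The adaptor gene Sh2b3 was 1.49-fold lower, with both probe sets lower. It passed 1.5-fold with median centring, quantile normalization and loess (-0.63, -0.61 and -0.61). The adaptor gene Gab2 was 1.29-fold lower, also by both of its probe sets. Shc3, an adaptor of neurons, was 1.30-fold higher by 1 probe set. Of the partners of p75, 12 of 15 were measured, 5 higher and 7 lower, with a median of -0.12. Zfp110, a p75-binding zinc finger gene, was 1.48-fold higher by the brighter of its probe sets, with another of the opposite sign. Adam17, a protease that cleaves p75 and the pentraxin receptor, differed by 0.31 with all 3 probe sets higher, and Lingo1, a co-receptor of p75, by -0.29 with both lower.

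Of transcripts that Bdnf signalling induces, 5 of 14 measured were higher and 9 lower, with a median of -0.067. None passed 1.5-fold. The early genes Fos and Nr4a1 differed by -0.38 and -0.34, and Egr1, another early gene, by 0.29, each by 1 probe set. Of 19 regulators of Bdnf transcription 16 were measured, 10 higher and 6 lower with a median of 0.03, but 5 higher and 11 lower with median centring. Crtc1 itself was 7.42-fold lower. Npas4, an activity-dependent transcription factor that binds Bdnf promoters, read 62.7 and 44.6 (0.49, array error 0.32), and Carf, a calcium-response factor of the Bdnf gene, differed by 0.31. Crtc2, a paralog of Crtc1, differed by -0.23.

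AMPA receptor genes and partners of the pentraxins were measured in 18 of 21 cases, 10 higher and 8 lower with a median of 0.02 (7 and 11 with median centring). Cacng8, an auxiliary subunit of AMPA receptors, read 91.9 in the knockout and 45.3 in the wild-type pool, 2.03-fold higher (1.02, array error 0.32). These values are of its brighter probe set, and the other was also higher. Grip1, an AMPA receptor scaffold, read 98.2 and 64.9, 1.51-fold higher (0.60, array error 0.32, 1 probe set). With median centring, quantile normalization and loess Grip1 was below 1.5-fold (0.54, 0.55 and 0.54). Cacng4 and Cnih3, also auxiliary subunits, differed by -0.32 and -0.31, and the glypican gene Gpc6 by 0.29. Cacng8 and Pcsk5, like Npas4, had wild-type signals below 52.3, in the range of the largest array error, and passed the limit through the knockout pool. Of 8 genes that mark hypothalamic neurons of the Bdnf pathway, 2 were measured. Pomc differed by -0.35 with probe sets of opposite sign, and Trh by 0.05, a sign lost with median centring.

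**Figure D4:**
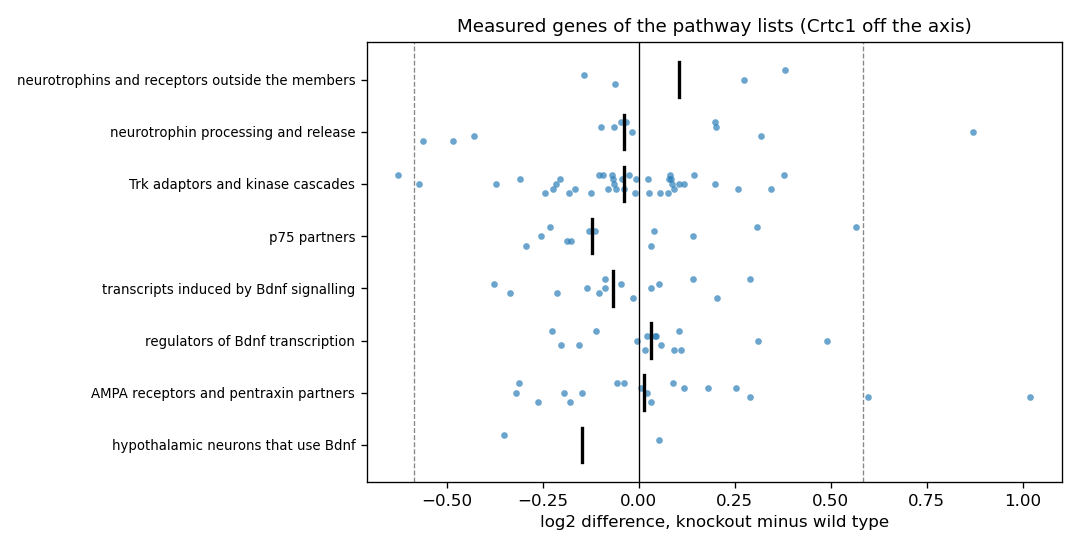
Log2 difference, knockout minus wild type, of the measured genes of the 8 pathway lists, each point a gene by its brightest probe set, with list medians as black bars and dashed lines at 1.5-fold. Crtc1, at -2.89, enters the median of the regulators and is beyond the axis. The list medians lie between -0.15 and 0.11, and 3 genes lie beyond the right line and Mapk7 beyond the left.

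Marker genes of the cells that carry these transcripts were read on the same arrays. All 10 neuron markers were measured, with signals summing to 33240.9 in the knockout and 33391.6 in the wild-type pool, 4 higher and 6 lower, and a median of -0.022. The neuron split was 1 higher and 9 lower with median centring (median -0.082), 5 and 5 with quantile normalization and 6 and 4 with loess. All 10 astrocyte markers were measured, with sums of 21119.2 and 20745.6, 7 higher and 3 lower, and a median of 0.054. The astrocyte split was 5 and 5 with median centring and 9 and 1 with quantile normalization or loess. Ntrk2 is expressed by neurons and astrocytes, and the part of either cell type in its values was not tested.

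Of 12 cortex and hippocampus markers, regions where Bdnf and Nptx2 are abundant, 10 were measured, with sums of 6069.2 in the knockout and 5476.3 in the wild-type pool, 7 higher and 3 lower, and a median of 0.16. Neurod6 read 168.1 and 107.4, 1.57-fold higher, and Lamp5 differed by 0.36, each by 1 probe set. Emx2 differed by -0.46, also by 1 probe set, with a knockout signal of 48.3, below the measured limit. Neurod2 differed by -0.38, with a second probe set of the opposite sign. The knockout pool thus had the higher Nptx2 signal and the higher median of cortex markers, and the part of the latter in the former was not tested. Microglia markers summed to 4689.8 and 4116.9 (7 of 9 higher, median 0.23), and endothelial and mural markers to 2881.9 and 2517.4 (6 of 8 higher, median 0.13). Trem2, a receptor of microglia, read 84.4 and 52.1 (0.70, array error 0.32), with the wild-type signal below the measured limit. Oligodendrocyte markers had a median of 0.06 over 8, thalamus markers 0.07 over 8, striatum markers 0.10 over 6 and markers of peripheral nerve -0.05 over 2. The lowest signal on either array was 0.1, so no marker read 0.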

How the data were processed

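RNA of pooled hypothalami was measured on 2 arrays, 1 per genotype. The authors deposited linear signal intensity values per probe set, while the summary method was not given in the sources used here. These values had a mean of 200.0 on both arrays without the lowest and highest 2%, so 1 scaling factor per array had been applied. Of 45101 probe sets, 64 controls were left out. Names came from GEO's platform annotation, updated by Entrez gene ID through RefSeq (GRCm38.p6): 34945 probe sets had 1 gene, 932 several and 9160 none in the table used. Signals were floored at the 30th percentile of each array and put on the log2 scale. A gene took its brightest measured probe set. The array error was 0.32 below a mean log2 signal of 7, then 0.26, 0.23 and 0.21 for each step up to 10, and 0.16 above. All 8 members and, from each list, genes past 1.5-fold and up to 3 others of largest difference were named. Members and lists were chosen with earlier results of these data known. Alternatives covered scaling, floor, filter and probe sets. Python 3.11.15, numpy 2.4.6, pandas 2.3.3 and statsmodels 0.14.6 were used, and the code was tested on simulated data.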

Additional observations from a re-analysis of the deposited data

How the results depend on the processing

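The 6 gene differences were recomputed under 10 alternatives, or 9 for Bdnf and Ngfr, which a filter at the 70th percentile removed. All kept their sign except Nptx1, which was -0.023 with the mean of its measured probe sets. The ranges were 0.11 to 0.20 for Bdnf, -0.29 to -0.15 for Ntrk2, -0.15 to -0.074 for Ntrk3 and 0.065 to 0.13 for Ngfr. The number of member probe sets past 1.5-fold was 0 in each alternative that counts them, and past 1.2-fold, a limit added after the data were seen, it was 4. The number of Ntrk2 and Ntrk3 probe sets that were higher, 2 in the main setting, was 1 with median centring, quantile normalization, loess or the filter at the 70th percentile. Without the filter on dim probe sets it was 5, and 13 member probe sets were higher, 4 of them under the floor in both pools, where the sign is only that of the floors. With the filter at the 70th percentile 3 were higher. Without a filter 8 pathway genes were at least 1.5-fold higher and 4 lower, against 719 and 582 of all 18193 genes. The pathway genes then split into 67 higher and 67 lower. With the filter at the 70th percentile 0 were at least 1.5-fold higher and 1 lower, against 48 and 46 of all 8020 genes. There 40 pathway genes were higher and 48 lower. The counts past 1.5-fold were 2 higher and 4 lower with median centring, and 2 and 3 with quantile normalization or loess. With a pseudocount of 16 they were 2 and 1, against 138 and 96 of all 11313 genes. Without probe sets of suffix _s_at or _x_at they were 2 and 2, against 225 and 166 of all 10980 genes. Pcsk5 was then not past 1.5-fold. Over all measured genes, 233 were at least 1.5-fold higher and 163 lower, against 165 and 229 with median centring and 186 and 197 with quantile normalization. No paired analysis was possible because each genotype was 1 pooled array. Dim probe sets are limited by their signal over background.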

Other observations

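The 3 probe sets that the annotation pairs with both Nptxr and Npcd were read outside the comparisons. Nptxr encodes the membrane-bound neuronal pentraxin receptor, and RefSeq places Npcd, a read-through of Cbx6 and Nptxr, over the same stretch of chromosome 15. Probe set 1434270_at read 4186.9 in the knockout and 4083.2 in the wild-type pool (0.036 on the log2 scale). Probe set 1421181_at read 785.0 and 909.9 (-0.21, array error 0.21), and 1450147_at read 672.7 and 749.7 (-0.16, array error 0.21). The brightest was thus nearly equal in the pools and the other 2 were lower in the knockout pool, by up to 1.16-fold. The values cannot be assigned to either gene alone.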
